A study of Rattus norvegicus with 232 samples.

Results

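Unannotated multi-exon antisense features are genes of the assembled rat brain transcriptome that carry no reference gene identifier or name, have a transcript of 2 or more exons, and lie over a named gene on the other strand. Of the 100167 genes of the assembly, 13016 (12.99%) met this rule outside 2 regions that were left out, chromosome 20 from 0 to 7 Mb and chromosome 19 from 25 to 30 Mb. Values were at hand for 12942 of them, and for 12937 the named gene on the other strand had values too. That named gene, the one with the longest overlap, is called the partner below. The partners were 6039 features under 5378 symbols. The rule used gene structure alone.

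Both strands of a mammalian gene can be transcribed. An antisense RNA may start near the promoter of the gene it opposes, run into its end, or lie inside an intron, and many such RNAs are long noncoding RNAs that stay in the nucleus. Some are well studied in brain, such as the antisense transcripts at the App, Bdnf and Emx2 loci, and at imprinted genes such as Kcnq1 a long antisense RNA accompanies silencing of nearby genes on 1 parental chromosome.

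Total RNA depleted of ribosomal RNA was sequenced with a stranded kit from the brains of untreated male rats of the Hybrid Rat Diversity Panel, a collection of inbred strains. The tables used here held 3 animals of each of 45 strains, 1 library an animal. Of these strains 30 were HXB/BXH recombinant inbred lines, descended from crosses of SHR/OlaIpcv (spontaneously hypertensive) with BN-Lx/Cub, and 15 were classic inbred strains, both progenitors included. The other 13 classic strains were ACI/SegHsd, COP/CrCrl, DA/OlaHsd, F344/NCrl, F344/NHsd, F344/Stm, LE/Stm, LEW/Crl, LEW/SsNHsd, SHRSP/A3NCrl, SR/JrHsd, SS/JrHsd and WKY/NCrl. Levels are regularized log values (rlog, a log2 scale) per gene after 1 factor of unwanted variation was taken out by the authors. They are not divided by gene length, so values without the words "per kb" are not comparable between genes of different length, and values per kb have log2 of the exonic length in kb subtracted. No read counts were used, so the depth behind a value is unknown.

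The median level of a library ranged from 3.52 to 4.10 over all features and from 2.98 to 3.49 over the antisense features. The neuronal genes Snap25 and Syt1 lay at 14.28 or more in every library. Liver genes peaked in library 2 or 3 of LE/Stm (Alb reached 18.18 against a median of 9.50). Results were also computed without these 2 libraries and 5 others in doubt, library 2 of F344/NCrl, library 1 of SHRSP/A3NCrl and the 3 of LEW/Crl. All libraries of 11 classic strains (the list above without F344/Stm, LE/Stm and the progenitors) were sequenced in batches 8 to 11, and only 5 libraries of the other 34 strains were. For these 11 strains, strain group and batch cannot be told apart. By the paper, the HXB/BXH lines and both progenitors were kept in Prague and their brains shipped in liquid nitrogen. The other classic strains came from vendors to Colorado, where their brains were put in RNAlater. Colony and tissue handling therefore cannot be told apart from strain group either. In bulk tissue, fewer cells of a type and less RNA per cell cannot be told apart either.

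Most of the antisense features were short in exons and sparse in isoforms. Of the 13016, 7854 (60.3%) had no transcript of more than 2 exons, 2587 had 3 and 529 had 8 or more, and 12002 were assembled as 1 transcript. The median feature spanned 16303 bases (quartiles 5172 and 50004) with 1705 exonic bases, and the longest spanned 1103959 bases. Most, 8455 of the 12942 with values, lay inside the partner's span, 2527 overlapped it head-to-head, 1354 tail-to-tail, and 606 reached around it. They made up 18.3% of the features of chromosome 10 and 7.48% of those of the X chromosome.

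The features were not evenly spread over partners, nor independent of each other. One antisense feature was found for 2611 symbols and 5 or more for 631. The most were opposite the clone-named genes AABR07056118.1 (60) and AABR07005752.1 (52), while the 46 opposite U6 and 25 opposite 7SK lay over several copies of these small nuclear RNA genes, which share 1 symbol. Among genes with names that denote a function, Tmem161b (28), Cox16 (24) and Fam172a (22) were among those with the most. Exons of 4935 features (37.9%) overlapped those of another antisense feature on the same strand, so that neighbouring features can share reads. Of all 13016, 2414 overlapped a named gene on their own strand.

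The exons of 5766 features overlapped those of the partner. Of these, 2062 (15.8% of all) held an intron whose both ends were identical, base for base, to those of an intron of the partner on the other strand, and in 1462 all introns did so. Whether such introns carry the splice signals of the antisense strand was not tested, since no sequence of the rn6 assembly was used here, and the counting settings for strand are not given in the sources used here. Reads of exons shared by both strands may therefore not be told apart.

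The feature with the most exons, PRN6.5G0073020, lay opposite Itpr1, the inositol trisphosphate receptor that releases calcium from the endoplasmic reticulum (rn6 chr4:140247335-140704650, minus strand). Its longest transcript had 61 exons (of 13 transcripts) against 63 of Itpr1, and 58 of its 90 introns had both ends in common with an Itpr1 intron. PRN6.5G0036727, with 57 exons (chr2:144949688-145626764, minus strand), surrounded the single-exon gene Mab21l1. RefSeq lists a protein-coding gene, Nbea (a neuronal vesicle-trafficking protein), on the strand opposite Mab21l1, and the assembly gives no feature that name. PRN6.5G0016412, with 40 exons, ended over a feature that carries the symbols Lyrm1 and Rexo5 (chr1:189708983-189829284, minus strand).

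**Figure D1:**
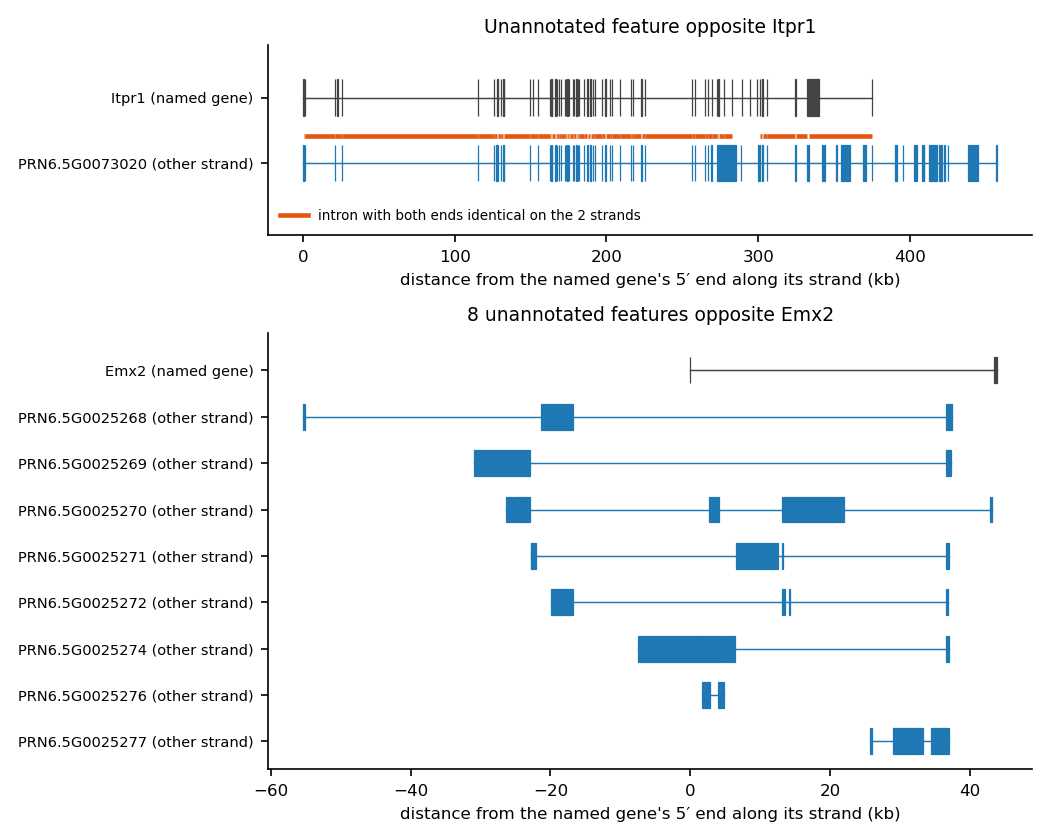
Exons (boxes) and introns (lines) of antisense features (blue) and of the named gene (grey) at Itpr1 and Emx2, by distance in kb from the named gene's 5′ end along its strand, with orange bars over introns whose both ends are identical on the 2 strands. The Itpr1 feature mirrors 58 introns of its partner, and none of the 8 Emx2 features shares one.

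Some unnamed features may be genes that RefSeq lists. RefSeq entries with a strand were found for 3713 of the 5378 partner symbols, and 1185 of these (31.9%) had a RefSeq gene on the other strand that overlapped them, against 25.7% of 5422 other named symbols. The opposing entries were 957 noncoding (lncRNA) and 548 protein-coding genes. Long noncoding entries lay opposite App, Gnas, Itpr1, Rgs7, Cdh20, Ranbp17 and Ube3a, and protein-coding ones opposite Cep295 (Taf1d), Prmt9 (Tmem184c), Sla2 (Rab5if), Clcn3 (Cbx3l1) and Mab21l1 (Nbea). RefSeq positions are on the GRCr8 assembly and the features on rn6, so single features were not matched to these entries.

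In 162 head-to-head pairs the 5′ ends of the antisense feature and the partner lay within 250 bases of each other. The spans of these pairs overlap by rule, so pairs that diverge from a promoter without overlap are not among them. The level of both strands was correlated over strains past the threshold described below in 32 of the 162 pairs, 21 positively and 11 negatively, and 25 of these partners had a promoter entry. The partners' promoters of the 4 with the highest and the 2 with the lowest correlation (chosen after their values were seen) are printed. In each pair the antisense feature starts 56 to 229 bases downstream of the partner's own start on rn6. By these distances the printed window, which ends 50 bases after the partner's start, holds no antisense start. Each promoter runs from 250 bases before to 50 after the partner's start, 5′ to 3′ on the partner's strand, from RefSeq (GRCr8), at chr16:34137754-34138053 plus strand for Clcn3, chr8:20361358-20361657 plus for Vstm5, chr10:18606998-18607297 minus for Ranbp17, chr19:47318633-47318932 minus for Prmt9, chr12:6487076-6487375 plus for Stxbp2 and chr2:17570244-17570543 plus for Ccnh. The RefSeq start may be another start than that of the assembled feature. Capitals mark matches on either strand to TATAAA (the TATA box), CCAAT (bound by NF-Y), GGGCGG (an Sp1 motif) or TGACGTCA (the cyclic AMP response element), and the NRF1 motif was searched too.
Clcn3: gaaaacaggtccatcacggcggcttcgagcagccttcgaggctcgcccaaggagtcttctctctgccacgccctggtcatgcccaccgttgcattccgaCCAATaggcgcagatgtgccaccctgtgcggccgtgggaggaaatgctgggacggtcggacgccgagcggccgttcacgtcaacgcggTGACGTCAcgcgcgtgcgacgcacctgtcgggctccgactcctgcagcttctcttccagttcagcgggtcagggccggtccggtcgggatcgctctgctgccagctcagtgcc
Vstm5: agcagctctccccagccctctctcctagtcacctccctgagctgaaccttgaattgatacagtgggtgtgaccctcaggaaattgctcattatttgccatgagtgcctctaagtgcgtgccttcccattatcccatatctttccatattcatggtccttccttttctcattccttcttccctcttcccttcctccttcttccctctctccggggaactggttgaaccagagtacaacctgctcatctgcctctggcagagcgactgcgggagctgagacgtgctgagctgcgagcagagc
Ranbp17: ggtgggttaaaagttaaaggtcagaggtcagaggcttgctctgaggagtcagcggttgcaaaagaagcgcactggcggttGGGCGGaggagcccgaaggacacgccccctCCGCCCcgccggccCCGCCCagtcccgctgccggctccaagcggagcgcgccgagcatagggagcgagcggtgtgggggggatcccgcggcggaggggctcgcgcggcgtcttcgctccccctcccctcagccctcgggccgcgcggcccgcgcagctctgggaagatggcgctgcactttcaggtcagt
Prmt9: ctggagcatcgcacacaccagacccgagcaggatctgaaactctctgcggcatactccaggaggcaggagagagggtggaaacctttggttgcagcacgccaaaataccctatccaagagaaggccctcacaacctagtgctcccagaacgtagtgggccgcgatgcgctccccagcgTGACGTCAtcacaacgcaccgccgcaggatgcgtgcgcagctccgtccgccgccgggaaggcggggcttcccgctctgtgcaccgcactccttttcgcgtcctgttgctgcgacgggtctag
Stxbp2: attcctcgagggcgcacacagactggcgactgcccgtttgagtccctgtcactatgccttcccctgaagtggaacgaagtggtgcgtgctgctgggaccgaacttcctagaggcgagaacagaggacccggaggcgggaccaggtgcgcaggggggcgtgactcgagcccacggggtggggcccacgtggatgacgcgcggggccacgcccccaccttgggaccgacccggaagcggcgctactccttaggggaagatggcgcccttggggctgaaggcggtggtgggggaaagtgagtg
Ccnh: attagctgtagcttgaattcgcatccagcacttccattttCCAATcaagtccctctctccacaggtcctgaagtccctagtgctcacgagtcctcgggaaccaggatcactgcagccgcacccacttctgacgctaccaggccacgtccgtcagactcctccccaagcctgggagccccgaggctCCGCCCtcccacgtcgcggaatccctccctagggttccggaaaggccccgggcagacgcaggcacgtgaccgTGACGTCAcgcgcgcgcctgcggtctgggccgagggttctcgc

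TGACGTCA was found in the promoters of Clcn3, Prmt9 and Ccnh, and in 1.83% of all 33469 promoters of the same length. GGGCGG occurred 3 times in Ranbp17 and once in Ccnh (33.1% of all promoters), and CCAAT once each in Clcn3 and Ccnh (37.5%). No match overlapped another, none of the 6 held TATAAA (14.2% of all promoters) or the NRF1 motif (0.852%), and Vstm5 and Stxbp2 held none of the motifs searched. The G and C content was 62.7% to 70.7% in 5 of the promoters and 53.0% in Vstm5, against a median of 51.7% over all promoters. These matches are a description of the letters in this window and were not tested as binding sites.

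The antisense features were low. Per kb of exon their median level was 2.50, against 3.91 for named features and 6.41 for their partners, with a median difference within a pair of 3.76 log2 units. On the rlog scale, which is not comparable between genes of different length, their median was 3.16 (quartiles 2.09 and 4.46), and 38.5% lay above the median of the table. The gap was widest where the pair shared an intron (6.43) and smaller where exons overlapped without one (3.65) or did not overlap (3.02). Across the 12937 pairs the per-kb levels of the strands were hardly related (Spearman's rho = -0.06, across pairs that share libraries and partners, with no test).

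The highest rlog values belonged to PRN6.5G0059485 opposite AABR07054400.1 (rn6 chr3:152460440-152465543, minus strand), which ranged from 14.32 to 15.28 over all libraries with a median of 14.85. PRN6.5G0055571 opposite Exd1, an exonuclease-domain gene of the piRNA pathway, ranged from 13.73 to 15.22 (median 14.60). Its partner ranged from 1.40 to 4.48, and per kb of exon the mean levels were 10.26 and 2.98. PRN6.5G0036727 around Mab21l1 had a median of 13.92, PRN6.5G0026327 around Nr2f1, a nuclear receptor of cortical patterning, 12.95, and PRN6.5G0065337 at the end of Tspan12 12.62. Per kb, these 5 features stood at 12.49, 10.26, 8.35, 5.57 and 9.86, in the same order.

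Whether the level of a feature differs between strains was asked with limma's moderated F-test over 45 strains, adjusted by Benjamini-Hochberg over all 99376 features, with the 3 animals of a strain as replicates. The antisense features differed between strains as often as other features did, 4675 of 12942 (36.1%) at an adjusted p under 0.05, against 36.7% of all features. The median share of variance between strains (R2) was 0.41 for the antisense features and 0.42 for all features. Without any strain difference R2 would average 0.328 in this layout, so much of the median is what 3 animals per strain give by themselves. R2 was over 0.50 in 23.1% of antisense features, 23.7% of all features and 30.5% of named features. The p-values rest on the spread between 3 animals of 1 strain.

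With level taken into account the comparison changed. In the lowest quartile of the table's levels 23.2% of the antisense features differed between strains, and the share rose to 34.7%, 44.5% and 57.7% in the next quartiles. Named features went from 24.8% to 46.3% over the same quartiles, and unannotated multi-exon features that oppose no named gene from 26.1% to 47.6%. Among the 1254 antisense features of the top quartile, 724 differed, against 47.0% of all features there. Quartiles match levels only in part. In the top one the median level was 6.77 for antisense features and 8.93 for named features. It was 6.81 for unannotated multi-exon features that oppose no named gene. With sequencing batch as a covariate 2374 antisense features (18.3%) differed between strains, against 18.8% of all features, and among the 30 HXB/BXH strains alone 1506 did (11.6%, against 10.4% of all features).

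**Figure D2:**
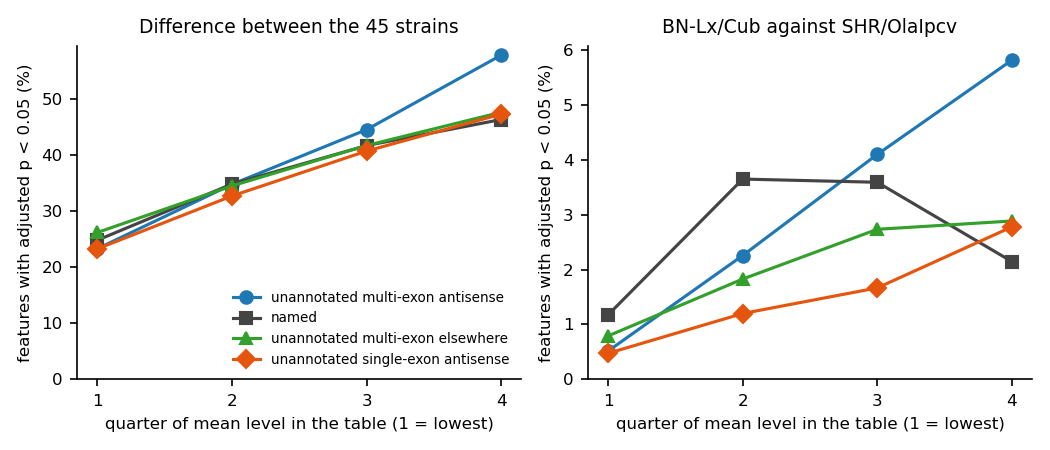
Share of features with an adjusted p under 0.05 (%) by quartile of mean level in the table, for the F-test over 45 strains (left) and the contrast of BN-Lx/Cub with SHR/OlaIpcv (right), in 4 classes of features. The antisense features reach 57.7% and 5.82% in the top quartile, where named features stand at 46.3% and 2.15%. Unannotated multi-exon features that oppose no named gene stand at 47.6% and 2.89% there.

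Of the 2055 features that shared an intron with their partner, 26.1% differed between strains (median R2 0.38), against 39.0% of those with overlapping exons and no shared intron and 37.5% of those without exon overlap. The first had the lowest median level (2.82). Where both members of a pair lay above the table median, the shares were 41.9% with a shared intron and 48.4% without. Features that also overlapped a named gene on their own strand differed in 32.5% of cases.

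The 6 features with the highest R2, among those above the table median, were almost fully set by strain (R2 0.96 to 0.98), and each fell into separate groups of strains. PRN6.5G0167389 opposite Rgs7, a regulator of G protein signalling in neurons (rn6 chr13:93535939-93632032, plus strand), lay between 6.28 and 6.82 in 18 strains and between 8.29 and 8.92 in the other 27. Single libraries ran from 6.01 to 9.18 with a median of 8.46. The low group held 11 HXB/BXH and 7 classic strains, with HXB5/Ipcv lowest (6.28 ± 0.24, SD, n = 3) and DA/OlaHsd highest (8.92 ± 0.22). The Rgs7 partner itself ranged from 9.23 to 10.53 over strain means, with overlapping ranges in both groups and an R2 of 0.45.

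PRN6.5G0094633 opposite Hpcal1, a neuronal calcium sensor (chr6:43122645-43141034, minus strand), had the widest gap, from 4.36 to 5.71 in 20 strains and from 8.45 to 10.18 in 25. The low group held 19 of the 30 HXB/BXH strains and 1 classic strain. PRN6.5G0208149 inside Malt1, a protease of NF-kB signalling, was at 1.67 to 2.60 in 21 strains and 4.80 to 6.37 in 24. PRN6.5G0147531 inside Ten1, of the telomere-capping CST complex, was at 1.74 to 3.37 in 23 strains and 5.26 to 6.55 in 22. PRN6.5G0155394 around Ppil2, of the cyclophilin family, was at 3.00 to 4.32 in 14 strains and 5.99 to 7.96 in 31. PRN6.5G0216448 inside Nudt3, a diphosphoinositol polyphosphate phosphatase, was at 3.78 to 4.78 in 18 strains and 6.11 to 7.18 in 27.

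These 6 features were chosen for their R2, so the split itself is a description. Their partners did not share it. In all 6 the partner's ranges in the low and high groups overlapped, its R2 was 0.35 to 0.83, and the correlation of the strands over the 30 HXB/BXH strains, in which every one of the splits occurred, lay between -0.25 and 0.14. Over all 45 strains the Hpcal1 pair alone had an adjusted permutation p under 0.05 (r = -0.49, 0.00597), with r of 0.05 and -0.41 within its groups. None of these 6 features shared exon bases with its partner. The difference between the strands varied between strains in each of the 6 (R2 of the difference 0.89 to 0.97).

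Whether an antisense feature and its partner vary together was asked with Pearson's r of the 45 strain means and a two-sided permutation test (100000 permutations, Benjamini-Hochberg over 24462 opposite-strand pairs, pairs of named genes included). The permutations treated the strains as exchangeable, with no allowance for their relatedness. The paper reports inflated type I error for its SNP regression without kinship. How far shared ancestry adds to the calls here was not tested. In most pairs no correlation was called. The median r was 0.04 (upper quartile 0.23), 1550 pairs (11.98%) were positively and 701 (5.42%) negatively correlated at an adjusted p under 0.05. With sequencing batch as a covariate 2264 were positive and 1483 negative, a larger part of them negative. Strain values from that fit share the errors of the batch estimates where strains share batches. The permutations make no allowance for this, so the larger number of calls is a description only. No share of all opposite-strand pairs is given for that fit, and the shares that follow are without batch. Of all opposite-strand pairs 17.1% were positive and 6.32% negative, and of the 11525 pairs of named features 22.8% and 7.32%, with a median r of 0.10. Between an antisense feature and the nearest named feature that did not overlap it, a median of 37884 bases away, the median r was 0.0049.

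Over all 45 strains the median r was higher with more shared structure. It was 0.13 with a shared intron, 0.06 with overlapping exons and no shared intron, and 0.01 where only the spans overlapped, and the negative calls ran the other way (2.48%, 5.50% and 6.21%). Pairs of named features had the same order. Their median r was 0.22 with a shared intron, 0.13 with overlapping exons (shared introns included) and 0.08 without exon overlap. Their negative calls were 4.77%, 6.94% and 7.62%. By exon number, the median r of the antisense features was 0.02 with 2 exons and 0.14 with 8 or more. These medians by exon number were 0.0060 and 0.07 over the HXB/BXH strains and 0.0025 and -0.04 over the classic strains. For deviations of animals from their strain means they were -0.0032 and -0.06. Over the HXB/BXH strains the medians by shared structure were smaller and in the same order, 0.06 with a shared intron, 0.04 with overlapping exons and no shared intron and -0.0045 without exon overlap. Over the classic strains these medians were -0.0022, 0.03 and 0.0023, and for the deviations of animals from their strain means -0.0080, 0.03 and -0.011, and in both the pairs with a shared intron lay below those with exon overlap alone. Over all pairs the medians in these 3 sets were 0.02, 0.009 and 0.00093.

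**Figure D3:**
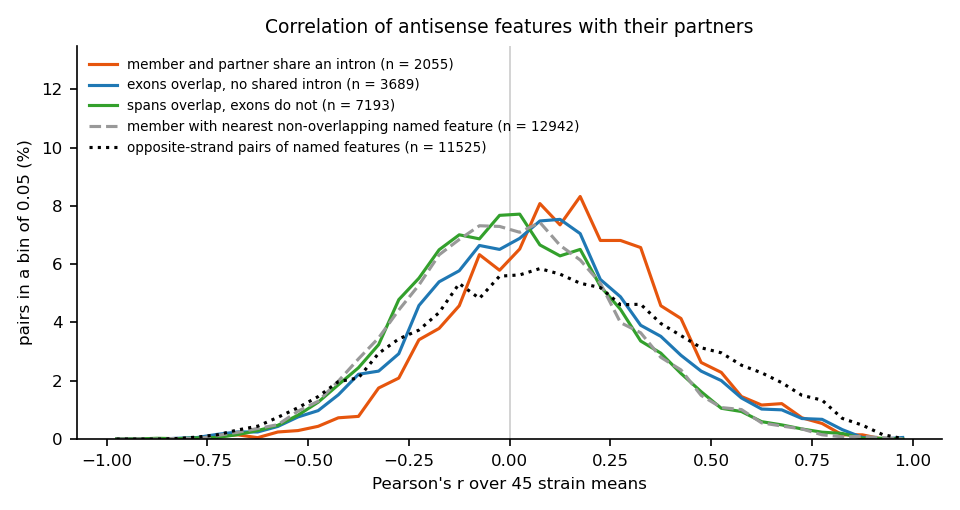
Distribution of Pearson's r over 45 strain means (x axis, in bins of 0.05, and y axis, pairs in a bin in %) for antisense features with their partners by exon relation, with the nearest named feature that does not overlap them, and for opposite-strand pairs of named features. The curve of pairs that share an intron lies furthest to the right among the antisense features (median 0.13), and that of pairs without exon overlap (median 0.01) has nearly the median of non-overlapping neighbours (0.0049).

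Over the 30 HXB/BXH strains alone 610 pairs were positively and 330 negatively correlated, against 9.48% and 3.34% of all opposite-strand pairs. As shares of the 12937 pairs, 2503 (19.3%) had a strain difference on both strands, 2170 (16.8%) in the antisense feature alone, 3813 (29.5%) in the partner alone and 4451 in neither. These states were not counted for pairs of named features. Where both strands differed between strains, 28.3% of pairs were positively and 9.43% negatively correlated, with a median r of 0.13. Pairs of named features were not counted under this condition, so these shares have no background here. Where the partner bears a clone or locus name, the median r was 0.09, against 0.03 for partners with other symbols.

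The difference between the strands was tested by the same F-test on the antisense feature minus its partner. It varied between strains in 5283 of 12937 pairs (40.8%), against 46.2% of all opposite-strand pairs and 52.2% of the pairs of named features. With sequencing batch as a covariate 3000 pairs passed (23.2%, against 26.7% of all opposite-strand pairs), and without replicate 2 of each strain 1941 (15.0%, against 17.1%). With a shared intron 24.96% of pairs passed, with overlapping exons and no shared intron 43.05%, and without exon overlap 44.2%.

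The pairs with the highest and lowest r, among those with both levels above the table median and both strands past the F-test, were examined one by one. There were 463 such pairs past the threshold, 346 positive and 117 negative. Since r chose them, the values of r are a description. In each of the 12 the adjusted permutation p was 0.000183, the smallest the permutations gave, that of Spearman's rho was at most 0.00835, and r kept its sign without the 2 strains farthest from the median partner level (0.82 to 0.97 and -0.85 to -0.70).

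PRN6.5G0057835 lay inside the span of AABR07053850.1, an uncharacterized clone-named gene (rn6 chr3:130941948-130962690, minus strand), and shared 888 exon bases with it. Over single libraries the antisense feature ran from 2.64 to 8.33 (median 6.10) and the partner from 5.79 to 11.65 (median 9.57). Both strands were low in the same 9 classic strains, all of batches 8 to 11 (2.70 to 3.81 for the antisense feature, 6.16 to 7.27 for the partner), and higher in the other 36 (5.08 to 7.40 and 7.70 to 10.87). Over all 45 strains r was 0.97 (rho 0.95), and within the groups it was 0.74 and 0.86. Over the HXB/BXH strains it was 0.82, and for deviations of animals from their strain means 0.85.

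PRN6.5G0176535 opposite Aebp1, an extracellular matrix and adipocyte regulator (rn6 chr14:86101487-86107673, minus strand), had 12 exons, all 11 introns mirrored those of Aebp1, and each of its 1474 exonic bases lay in an Aebp1 exon. Its libraries ran from 3.19 to 6.74 (median 4.87), those of Aebp1 from 9.43 to 12.09 (median 10.65). SS/JrHsd was the highest strain on both strands (6.05 ± 0.33 and 11.79 ± 0.29, n = 3), and r was 0.89 over 45 strains, 0.57 over the HXB/BXH strains and 0.35 for deviations of animals. The difference between its strands showed no strain effect (adjusted p = 0.893). PRN6.5G0104994 opposite AABR07056118.1, 1 of the 60 features at that gene, followed its partner with r of 0.87 over all and 0.89 over the HXB/BXH strains, with SHR/OlaIpcv lowest on both strands and HXB24/Ipcv highest. PRN6.5G0180993, head-to-head with Armh4, had r of 0.88 and 0.73.

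Among the negative pairs, PRN6.5G0195802 lay inside Rnf144b, an E3 ubiquitin ligase (rn6 chr17:17816676-17838074, plus strand). The antisense feature ran from 5.22 to 8.11 over libraries (median 6.71) and Rnf144b from 9.27 to 10.29 (median 9.75). Strains with a high antisense level had a low partner level, with r of -0.74 over all strains and -0.77 over the HXB/BXH strains. Over the 15 classic strains r was -0.30 (adjusted permutation p = 0.653), and within strains the animals' deviations went the other way (r = 0.43). With the partner's level taken from the table of Ensembl 96 genes r was -0.77. PRN6.5G0086905 around LOC103690007 had r of -0.75 over all and -0.80 over the HXB/BXH strains, with F344/Stm at the lowest antisense level (2.33 ± 0.49) and the highest partner level (9.42 ± 0.50).

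In 2 more negative pairs and 1 positive pair, groups of strains stood apart. PRN6.5G0131129 at the end of Inpp1, an inositol polyphosphate phosphatase, was at 7.61 to 9.61 in the 11 classic strains of batches 8 to 11 and at 5.20 to 6.43 in the other 34. Inpp1 was at 10.33 to 10.55 and 10.71 to 11.24. The pooled r of -0.85 became 0.23 within the 11 strains and -0.10 within the 34, and it was 0.03 over the HXB/BXH strains. PRN6.5G0193106 inside Ank1, an ankyrin that anchors membrane proteins to spectrin, split the same strains the other way round (1.86 to 3.22 against 3.96 to 5.23), with r of 0.86 pooled, 0.59 and 0.13 within the groups and 0.16 over the HXB/BXH strains. PRN6.5G0004478 by Fndc1 was at 2.36 to 3.00 in 12 classic strains and at 5.32 to 7.28 in the rest, with r of -0.85 pooled and -0.16 over the HXB/BXH strains. Of the 12 strains 10 were from those batches, the others were F344/Stm and LE/Stm, and none was a progenitor. PRN6.5G0215273 by Kcnk1, a background potassium channel, had r of -0.80 and, over the HXB/BXH strains, -0.39 (adjusted permutation p = 0.157). With sequencing batch as a covariate r over all strains was -0.84 at Inpp1, 0.83 at Ank1, -0.85 at Fndc1 and -0.89 at Kcnk1. Only 5 libraries of the other 34 strains lay in batches 8 to 11, so that fit separates batch from strain group only in part.

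Among all features, 0.431% had the strain means of these 11 strains all above or all below those of the other 34. Of the antisense features 31 (0.240%) did, 4 above and 27 below. In 3 of these 31 pairs the partner separated as well, and 20 of the 31 were called correlated over the 45 strains, against 17.4% of all antisense pairs.

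**Figure D4:**
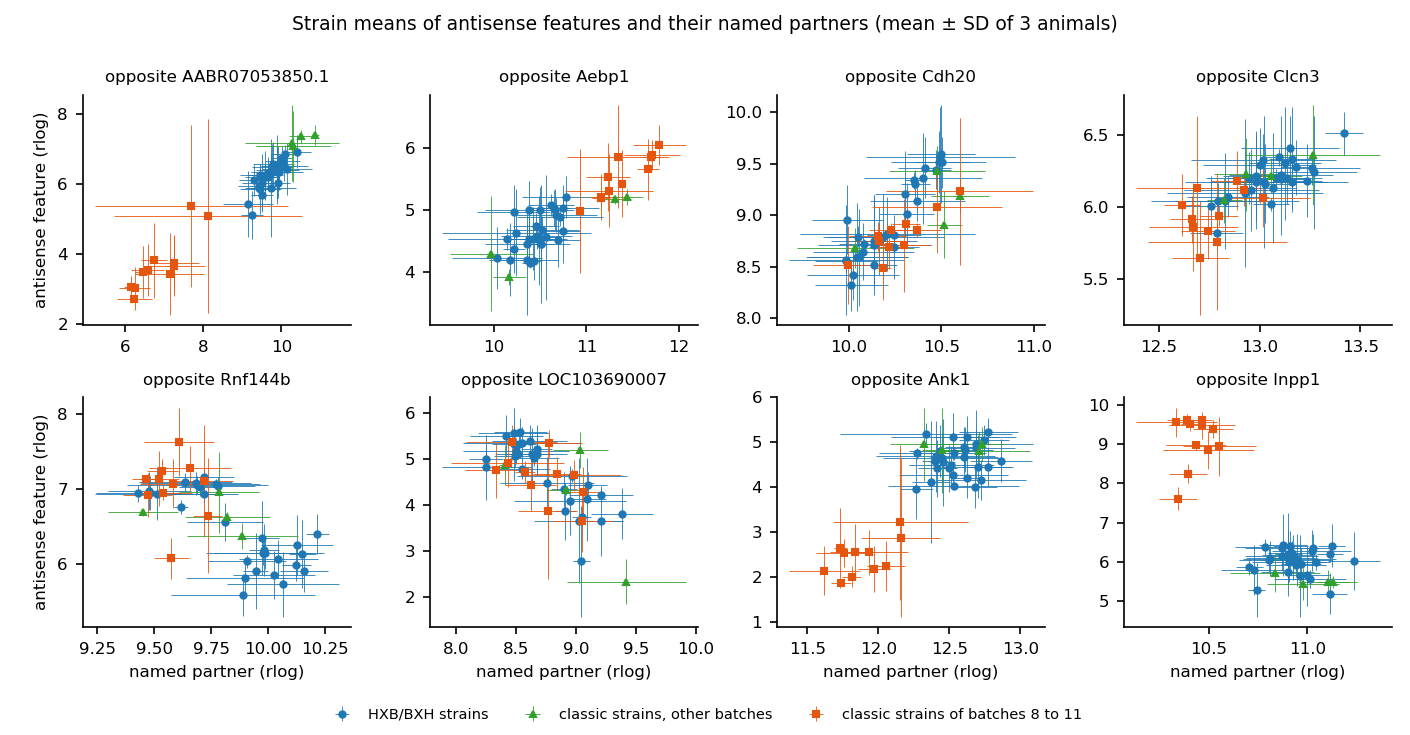
Strain means (± SD of 3 animals) of 8 antisense features (y axis, rlog) against their named partners (x axis, rlog), for HXB/BXH strains (blue), classic strains of batches 8 to 11 (orange) and other classic strains (green). At Cdh20, Clcn3, Rnf144b and LOC103690007 the relation runs through the blue points, while at Ank1 and Inpp1 the orange points stand apart and the blue ones show little relation (r = 0.16 and 0.03).

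Some partner features did not hold only the gene that their name denotes. PRN6.5G0059558 followed a feature named Sla2, a Src-like adaptor, with r of 0.86. That feature had 21 exons and a mean level of 13.62, while Sla2 in the table of Ensembl 96 genes stood at 4.03, and against the latter r was -0.50. PRN6.5G0010125 opposite LOC100912195, a feature of 60 exons, had r of -0.79, and 0.09 with the Ensembl 96 gene. It fell into 11 strains at 2.97 to 4.02 and 34 at 5.84 to 7.15, with r of 0.18 and 0.09 within them. With the Ensembl 96 gene r was 0.94 for AABR07053850.1, 0.86 for Aebp1, 0.85 for Armh4, -0.84 for Inpp1, -0.85 for Fndc1, 0.87 for Ank1 and -0.79 for Kcnk1. It was weaker for AABR07056118.1 (0.73) and LOC103690007 (-0.45). Mean levels also stood apart for other partners, among them Malt1 and Rgs7 (above) and AABR07009538.1 (8.22 against 1.52 for the Ensembl 96 gene).

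Since the 30 HXB/BXH strains derive from 2 progenitors and lie mostly outside those batches, the pairs with the highest and lowest r over these strains alone were also drawn (both levels above the table median, 521 pairs past the threshold, chosen after values were seen). PRN6.5G0161489 inside Cdh20, a cell adhesion cadherin (rn6 chr13:24756417-24790901, minus strand), ran from 8.01 to 10.04 over libraries (median 8.90) against 9.67 to 11.05 for the partner, with r of 0.92 over the HXB/BXH strains, 0.83 over all 45 and 0.77 for deviations of animals. With the Ensembl 96 gene of that name r was -0.32. PRN6.5G0116607, head-to-head with Cep295, a centriole protein, shared 22191 exon bases with it and had r of -0.90 over the HXB/BXH strains and -0.60 over all. Within its 16 strains of low and 29 of high antisense level r was -0.23 and -0.08. The gap between these groups was narrow (9.89 to 9.99), and 15 strains of each were HXB/BXH. PRN6.5G0171479 near the start of LOC360919 had r of 0.94 and 0.81, and 0.26 over all strains with the Ensembl 96 gene. It fell into 26 strains at 1.56 to 3.26 and 19 at 4.75 to 5.93, with r of 0.08 and 0.69 within them.

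A feature named LOC100910771 had antisense features of both signs. PRN6.5G0136212 (chr9:114182875-114373818, minus strand) rose with it over the HXB/BXH strains (r = 0.94) and PRN6.5G0136214 (chr9:114232131-114238495), which lies within the span of the first on the same strand, went against it (r = -0.88). Over all 45 strains the values were 0.70 and -0.47. PRN6.5G0136212 fell into 17 strains at 5.28 to 6.20 and 28 at 6.80 to 7.53, with r of 0.14 and 0.73 within them. With the Ensembl 96 gene they were 0.06 and -0.02. All 6 pairs of this kind had an adjusted permutation p of 0.00223 over the HXB/BXH strains.

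Of the head-to-head pairs whose promoters are printed above, Clcn3, an endosomal chloride-proton exchanger, and PRN6.5G0190251 (5′ ends 56 bases apart) had the highest r, 0.80 over all strains, 0.76 over the HXB/BXH strains and 0.68 for deviations of animals. The antisense feature ran from 5.22 to 6.75 (median 6.14) and Clcn3 from 12.37 to 13.64 (median 12.99), with HXB5/Ipcv highest on both. Its own strain difference did not pass the F-test (adjusted p = 0.331). For Vstm5 (199 bases apart), Ranbp17, a nuclear transport receptor (221 bases), and Prmt9, an arginine methyltransferase (229 bases), r was 0.59, 0.59 and 0.56 over all and 0.46, 0.50 and 0.34 over the HXB/BXH strains. For Stxbp2, a regulator of vesicle fusion, r was -0.51 over all and 0.18 over the HXB/BXH strains, and the antisense feature was lower in the 11 strains of batches 8 to 11 (1.26 to 2.18) than in the others (2.53 to 4.04). For Ccnh, cyclin H, r was -0.48 and -0.32. Both negative relations lost their call when 1 animal of each strain was left out (Stxbp2 -0.32 without replicate 1, Ccnh -0.36 and -0.38 without replicates 1 and 2). The 4 positive relations each lost their call in some alternative too. Their largest adjusted permutation p was 0.0619 for Clcn3, 0.0685 for Vstm5, 0.0882 for Ranbp17 and 0.926 for Prmt9.

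The medians of all 162 pairs with 5′ ends within 250 bases did not stand out. Their median r was 0.05, with 12.96% positive and 6.79% negative calls, against 0.11, 15.3% and 3.57% for the 813 head-to-head pairs with 5′ ends up to 5000 bases apart and 0.05, 12.6% and 5.41% for the 1552 beyond that.

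The progenitors of the HXB/BXH family, BN-Lx/Cub and SHR/OlaIpcv, were contrasted within the same limma fit. In BN-Lx/Cub 144 antisense features (1.11%) were higher and 190 (1.47%) lower at an adjusted p under 0.05, against 1.07% and 1.02% of all features. At an unadjusted p under 0.05 there were 1202, with no share of all features at hand for that threshold. By the batch field of the labels the 3 libraries of BN-Lx/Cub and the 3 of SHR/OlaIpcv had no sequencing batch in common, and these 6 libraries by themselves cannot tell strain from batch. When the fit included batch, 163 antisense features were called (55 higher and 108 lower in BN-Lx/Cub), 145 of them among the 334. No share of all features is given for the fit with batch. In the top quartile of levels 5.82% of the antisense features were called, against 2.43% of all features and 2.15% of named features. Unannotated multi-exon features that oppose no named gene stood at 2.89% there. Levels within this quartile were not matched, with medians of 6.77 for antisense, 6.81 for these and 8.93 for named features. Among named features the share called was 3.59% in the quartile below. The partner was called too in 38 of the 334 pairs, in the same direction in 34. In 236 other pairs the partner was called and the antisense feature was not. The difference between the strands was called in 224 of the 334.

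The same features were then followed in the strain lines descended from this cross. These animals entered the fit that called the progenitor differences and its estimate of spread, so the counts are a description and no independent test. Of the 334 features 319 (95.5%) differed between the 30 HXB/BXH strains, which include no library of the progenitors, against 88.0% of all features that differed between the progenitors. Their median R2 over these strains was 0.84. For a median of 14 of the 30 strains (quartiles 12 and 18) the mean lay on the BN-Lx/Cub side of the midpoint.

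The largest differences each way, among features above the table median, were seen in features whose partners were not called between the progenitors. PRN6.5G0082027 by the end of Coro2a, an actin-binding coronin (rn6 chr5:62110560-62134711, plus strand), was at 6.72, 7.40 and 7.62 in the BN-Lx/Cub animals and at 3.24, 3.50 and 3.54 in the SHR/OlaIpcv animals. The groups did not overlap, and the difference was 3.83 (SE 0.41, limma adjusted p = 1.3e-11). Coro2a itself was at 9.94, 10.40 and 10.44 against 9.83, 9.99 and 10.40, a difference of 0.19 (SE 0.17, adjusted p = 0.87). Over the HXB/BXH strains the antisense level fell into 17 strains at up to 4.54 and 13 at 7.33 or more.

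PRN6.5G0161543 inside Pign, an enzyme of GPI anchor synthesis (chr13:25490881-25492031, plus strand), was at 5.80, 6.24 and 6.29 against 2.05, 2.57 and 2.88, a difference of 3.61 (SE 0.60). PRN6.5G0038618 inside Wdr49 (chr2:173827389-173833650, plus strand) was at 7.21, 7.74 and 7.92 against 4.03, 4.05 and 4.16, a difference of 3.55 (SE 0.41). The partners differed by 0.14 and -0.0017. Of the 30 recombinant strains 17 and 8 lay on the BN-Lx/Cub side of the midpoint.

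On the other side, PRN6.5G0082459 inside Fsd1l (chr5:70462590-70472738, minus strand) was at 3.00, 3.01 and 3.95 in BN-Lx/Cub and at 7.71, 7.76 and 8.15 in SHR/OlaIpcv, a difference of -4.55 (SE 0.54), with 14 of 30 recombinant strains on the BN-Lx/Cub side and 1 nearer to the midpoint than to either progenitor. PRN6.5G0101934 inside the clone-named AABR07065531.26 (chr6:133614321-133690439, minus strand) was at 1.93, 2.05 and 2.22 against 6.25, 7.00 and 7.17, a difference of -4.74 (SE 0.69), and 11 recombinant strains lay nearer the midpoint. PRN6.5G0033633, head-to-head with AABR07009538.1 (chr2:102303146-102322420, plus strand), was at 1.78, 1.79 and 1.88 against 5.88, 6.68 and 6.73, a difference of -4.61 with a larger SE of 1.17, and 17 recombinant strains lay nearer the midpoint. Its call was lost without SHR/OlaIpcv replicate 2 or 3 (adjusted p = 0.0549 and 0.0638). The partners of these 3 differed by 0.30, -0.31 and -0.19, none of them called. Over the 45 strains r with the partner was 0.55 for the AABR07065531.26 feature (adjusted permutation p = 0.00108), 0.51 for that of AABR07009538.1 (0.00333) and 0.54 for that of Coro2a (0.00178). With the Ensembl 96 genes these r were -0.14, 0.18 and 0.51.

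**Figure D5:**
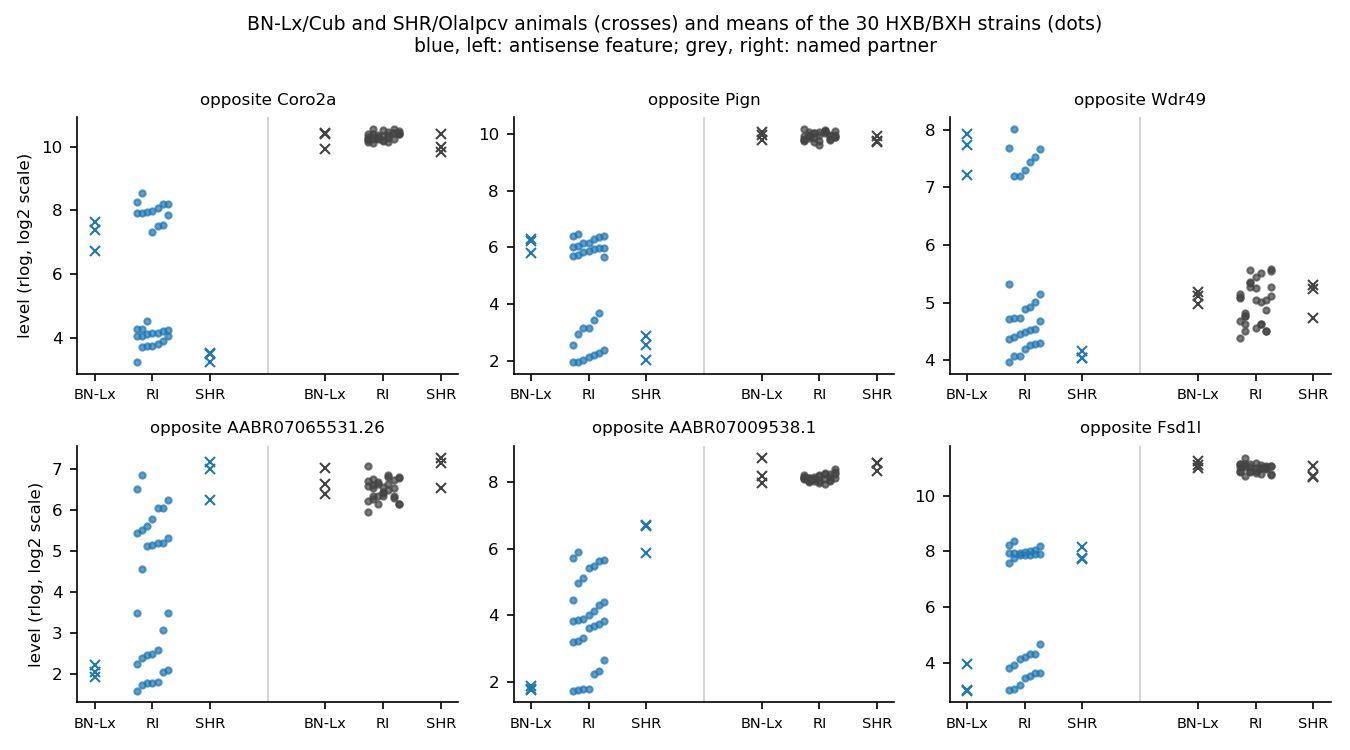
Levels (rlog, log2 scale) of the 6 features with the largest progenitor differences (blue, left of each panel) and of their partners (grey, right) in 3 BN-Lx/Cub and 3 SHR/OlaIpcv animals (crosses) and as means of the 30 HXB/BXH strains (dots). The progenitor animals do not overlap in any antisense feature, and the HXB/BXH means of the Coro2a, Wdr49 and Fsd1l features fall into separate groups in which the partners' means overlap.

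The Itpr1 antisense feature PRN6.5G0073020 differed between the progenitors as well, at 7.56, 7.88 and 7.95 in BN-Lx/Cub and 8.69, 8.75 and 8.85 in SHR/OlaIpcv, a difference of -0.96 (SE 0.17, adjusted p = 2.02e-05), while Itpr1 differed by 0.10 (SE 0.21). Over all strains its libraries ran from 7.27 to 9.18 (median 8.54) with an R2 of 0.85, those of Itpr1 from 14.67 to 16.77 (median 15.62), and r was -0.25 (adjusted permutation p = 0.222). Per kb the levels were 2.70 and 11.50. Of the other long features, that around Mab21l1 had an R2 of 0.49 (adjusted p = 0.064 in the F-test), and PRN6.5G0016412 by Lyrm1 and Rexo5 one of 0.69 with r of -0.64 over all and -0.54 over the HXB/BXH strains.

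Of the genes listed for an antisense RNA described elsewhere, 20 symbols had 69 antisense features here, with levels from 0.75 to 7.80 (median 3.63). Strain differences passed the F-test in 23 of the 69 (33.3%, against 36.7% of all features), and none differed between the progenitors. Positive correlations with the partner numbered 12 (17.4%) and negative ones 1 (1.45%), against 17.1% and 6.32% of all opposite-strand pairs. Opposite Emx2, a homeobox factor of cortex development, lay 8 features on the minus strand, shown in the map of exons, at mean levels of 1.74 to 6.51 (0.70 to 3.20 per kb, against 5.07 per kb for the feature named Emx2, which has 2 exons). Of these 6 differed between strains (R2 0.50 to 0.60), none was correlated with that feature (r 0.04 to 0.30), and it had an R2 of 0.32. With the Ensembl 96 gene Emx2, whose mean level was 7.64 against 4.02 for the 2-exon feature, r was 0.01 to 0.44, the highest for PRN6.5G0025271 (0.44) and PRN6.5G0025274 (0.41). Opposite Kcnq1, a voltage-gated potassium channel, lay 5 features at 4.19 to 7.80 (1.61 to 5.25 per kb, against 2.32 per kb for Kcnq1). Strain differences passed in PRN6.5G0018740 (R2 0.66) and PRN6.5G0018744 (R2 0.54), and PRN6.5G0018771 followed Kcnq1 (r = 0.43).

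Opposite Zeb2, a zinc finger repressor of neural crest and cortex, lay 10 features under a symbol shared by several reconstructed features. PRN6.5G0049043 had the highest correlation of the list, r = 0.74 over all strains and 0.53 over the HXB/BXH strains, with a feature of 2 exons named Zeb2, and -0.06 with the Ensembl 96 gene. Opposite Hif1a, the oxygen-regulated factor, PRN6.5G0098799 (r = 0.59) and PRN6.5G0098797 (r = 0.54) were positive, among 11 features. The App feature PRN6.5G0149789 shared 17 introns with App, the amyloid precursor, stood at 3.54 per kb against 12.33 per kb, and had r of 0.35 (adjusted permutation p = 0.0655) and an R2 of 0.28. With the Ensembl 96 gene App r was 0.48. The Bdnf feature PRN6.5G0054342 was at 2.05 with r of 0.24.

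The other groups of partners were counted in the same way, to be read against 36.7% of all features for strain differences, 1.07% and 1.02% for progenitor differences each way, and 17.1% positive and 6.32% negative correlations of all opposite-strand pairs. Opposite ion channels and neurotransmitter receptors lay 336 antisense features over 106 symbols, of which 130 (38.7%) differed between strains and 13 between the progenitors, and 43 (12.8%) were positively and 16 (4.76%) negatively correlated. Opposite synapse genes there were 165, with 58 strain differences (35.2%), 4 progenitor differences, and 9 positive (5.45%) and 12 negative (7.27%) correlations. For 127 features opposite developmental transcription factors there were 47 strain differences (37.0%), no progenitor difference, and 19 positive (15.0%) and 2 negative (1.57%) correlations. For 231 opposite zinc finger genes these counts were 90 (39.0%), 7, 27 (11.7%) and 12 (5.19%). For 32 opposite glial genes they were 8 (25%), 0, 3 (9.38%) and 2 (6.25%), and for 24 opposite imprinted genes 10 (41.7%), 1, 3 (12.5%) and 1 (4.17%). The median R2 was 0.39 to 0.43 in these groups and 0.42 over all features.

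Some strains stood at an extreme of many partners. SHR/OlaIpcv, a progenitor, had the lowest strain mean in 712 of 6027 partner features (11.8%) and COP/CrCrl in 631 (10.5%), and in 130 (1.00%) and 322 (2.49%) antisense features. HXB5/Ipcv had the highest strain mean in 1539 of 6027 partner features (25.5%, where 1 strain in 45 is 2.22%), and in 376 antisense features (2.91%). Among the antisense features it was the lowest strain more often, in 629 (4.86%). F344/Stm was lowest in 1045 (8.07%) and LE/Stm, 2 of whose libraries were in doubt, in 1022 (7.90%). Without HXB5/Ipcv the median r of the pairs was 0.0447.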

How the data were processed

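The authors trimmed the reads (cutadapt 1.9.1), removed ribosomal RNA (Bowtie2 2.3.4.3), aligned to strain-specific rn6 genomes (HISAT2 2.1.0), assembled transcripts (StringTie 1.3.5) and estimated gene counts with RSEM (1.3.1 in the submitters' processing notes). The authors then took 1 factor of unwanted variation out of the counts and transformed these with DESeq2's rlog. Their deposited tables hold these values on a log2 scale, those of the assembled genes entered here as a score because 37 values exceed 30. The table of Ensembl 96 genes, also log2 per the file headers and values, gave partner levels for 1 alternative. No counts were used, so depth is unknown.

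From these values strain differences and the progenitor contrast were fitted with limma 3.58.1 (R 4.3.3) over 99376 features, and correlations of strain means with numba 0.67.0 (100000 permutations, 10000 in alternatives). Both were tested on simulated data. The partner is the named feature of the other strand with the longest overlap. A shared intron has both ends identical. The members, gene lists and rules were chosen with earlier results of these data known. Named features were the 5 with the highest mean, the 6 with the highest R2, the 6 highest and 6 lowest r, the 3 largest progenitor differences each way, the 3 with the most exons, each with 1 feature per partner symbol and thresholds as stated, and the 69 opposite listed genes, some of which are not reported here by name. Pairs by r over the HXB/BXH strains and by promoter were added after values were seen. Replicate numbers were not used to pair the animals across strains in the main fits (mean correlation of deviations 0.02 for the same number and -0.01 for different numbers). Promoters and opposing genes came from RefSeq (GRCr8). Batches are those of the sample characteristics, and for 26 libraries the title gives another batch. Alternatives were batch or a replicate block in the fit, leaving out animals, libraries or strains, level and exon-overlap filters, Spearman's rho and the Ensembl 96 partner.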

Additional observations from a re-analysis of the deposited data

How the results depend on the processing

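The count of antisense features with a strain effect, 4675, was 2374 with sequencing batch as a covariate, 1506 over the 30 HXB/BXH strains, and 1775 to 2884 without 1 replicate per strain. The shares without replicate 1, 2 and 3 were 20.6%, 13.7% and 22.3%, against 21.8%, 12.01% and 20.4% of all features, so that without replicate 2 or 3 the antisense share was the higher of the pair. Among the 4985 above the table median it was 2602 (52.2%, against 50.4% of all features there). The median R2 (0.411) was 0.404 with batch regressed out, 0.542 to 0.575 without 1 replicate (2 animals per strain), 0.421 without the libraries in doubt, 0.361 over the HXB/BXH strains, 0.447 above the table median and 0.416 without features that share an intron. Correlated pairs, 2251 (17.4%), were 940 over the HXB/BXH strains, 141 over the 15 classic strains and 3747 (2264 positive, 1483 negative) with batch as a covariate. The last count comes from strain values that share errors of the batch estimates, for which the permutations make no allowance. Of smaller sets of pairs, 1185 (25.6%) were correlated with both levels above the table median and 1175 (20.5%) with overlapping exons. For these counts p was adjusted again within the set. With the adjustment over all opposite-strand pairs, 15.7% were positive and 7.71% negative with both levels above the median. Pairs of named features stood at 27.6% and 8.21% there, and at 26.8% and 6.94% with overlapping exons. The strand difference, 5283 pairs, passed in 3000 with batch and in 1941 to 3489 without 1 replicate. Without replicate 1, 2 and 3 the shares were 25.6%, 15.0% and 27.0%, against 28.7%, 17.1% and 29.6% of all opposite-strand pairs. The progenitor contrast, 334, gave 163 with batch. The median r (0.0427) was 0.0204 over the HXB/BXH strains, 0.0090 over the classic strains, 0.0897 with overlapping exons, 0.0263 without shared introns and 0.00093 for deviations of animals (the last 2, and the fits without HXB5/Ipcv, were chosen after seeing the data). The cause of the batch effect was not tested. Batch and strain overlap in this design.

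With a replicate block 5122 strain effects, 5983 strand differences and 345 progenitor differences passed and 2231 pairs were correlated, and among the named features it changed 1 call, that of the R2 of the Mab21l1 feature (adjusted p = 0.0073). Animals of different strains with the same replicate number were somewhat more alike than those with different numbers. Their deviations correlated over 0.1 in 10.4% against 4.11% of pairs of animals. Between different batches these shares were 6.68% and 3.63%. Whether replicate number stands for a technical grouping was not tested. Of 23 correlations recomputed under the alternatives (18 with both levels above the table median, 14 with overlapping exons), directions turned for Sla2 (-0.50), LOC100912195 (0.094) and Cdh20 (-0.32) with the Ensembl 96 partner, for Inpp1 (0.027) and Stxbp2 (0.18) over the HXB/BXH strains, and for Stxbp2 (0.0087) with batch. Of the alternative values of these 23, 250 kept direction and call, 29 lost the call and 6 turned. The 250 include all values of the level filter (18) and the exon-overlap filter (14), which leave r unchanged and alter only the adjustment. The pairs were also chosen for their r, so this tally is a description. Outside them, the positive correlations of PRN6.5G0049043 with Zeb2 (-0.06) and of PRN6.5G0101934 with AABR07065531.26 (-0.14), among others, also turned with the Ensembl 96 partner. The lack of counts limits what low features can show.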
